A study of Homo sapiens with 4 samples.

Results

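The 10 genes described here encode the parts of protein kinase A, its inhibitors and 1 of its anchors: the catalytic subunits PRKACA and PRKACB, the regulatory subunits PRKAR1A, PRKAR1B, PRKAR2A and PRKAR2B, the inhibitors PKIA, PKIB and PKIG, and the anchoring protein AKAP12. They were picked by gene symbol from a table of 23368 entries, and all 10 were found. The choice was made with fold changes between the groups already known, so for these genes every difference between the groups is given as a description, without a test. The study set cell lines of human acute lymphoblastic leukemia of the precursor type against each other by whether they carry t(4;11), the translocation that joins MLL (KMT2A) to AFF1, and sequenced their mRNA. RS4;11 and SEM carry it, and NALM6 and REH lack it. All were grown untreated in RPMI with 10% serum. Each line gave 1 library, so a group held 2 lines and each line stood for 1 leukemia. The lines lacking the translocation have lesions of their own: REH is known for an ETV6-RUNX1 fusion and NALM6 for a DUX4 rearrangement.

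Protein kinase A is the main receptor of the second messenger cAMP. At rest a dimer of regulatory subunits holds the catalytic subunits inactive, and cAMP binding to the regulatory subunits frees them. Type I holoenzymes, built on the RI subunits, are largely cytosolic, while type II holoenzymes, built on the RII subunits, are mostly tethered by A-kinase anchoring proteins. The PKI proteins are small pseudosubstrate inhibitors that block free catalytic subunits and carry them out of the nucleus. In lymphoid cells cAMP signalling is known to restrain proliferation and antigen receptor signalling.

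Library totals ranged between 33620574 counts (SEM) and 84212986 counts (REH). Levels are given as CPM, the count scaled to the line's column sum, and a pair of values for RS4;11 and SEM, or for NALM6 and REH, keeps that order. A floor of 3 counts corresponded to 0.0578 and 0.0892 CPM in the translocated lines and to 0.0669 and 0.0356 CPM in the others, for counting error only. All 8 markers of B precursors had counts in every line, but VPREB1 had only 19 counts in REH. Their summed level was 2134 and 1211 CPM with the translocation and 2440.3 and 2374 CPM without it. SEM was also low for CD79B (327 counts) and IGLL1 (912 counts), and CD79B was called lower with t(4;11) in both deposited tables. Of the markers of other cell types, CD3D, CD3E, CD3G, HBB, HBA1, PF4, S100A8, COL1A2 and DCN had 0 counts in all 4 lines. MPO had 2879 counts in REH and at most 18 elsewhere, and NCAM1 had 157 counts in SEM and 0 elsewhere. ITGA2B had 352 and 34 counts with the translocation and 31 and 242 without it. PDGFRB, NKG7, LYZ and ITGAM were among those with counts in every line. In bulk RNA, fewer cells that express a gene and less RNA per cell cannot be told apart.

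The members differed sharply in how far they varied. AKAP12 and PKIA were each nearly absent in one group and high in the other, in opposite directions. PRKAR2B and PKIB differed most between NALM6 and REH, and PRKAR1A was nearly constant. Of the 10 members 3 had groups that did not overlap, 1 higher (PKIA) and 2 lower (AKAP12 and PRKAR1B) with t(4;11). Among the 13844 genes that passed edgeR's low-count filter, 47.3% had groups that did not overlap (19% higher and 28.3% lower by column-sum CPM, and 24.3% higher and 23.4% lower with TMM scaling). All 10 members passed the filter, PKIA through its t(4;11) values alone. At an adjusted p under 0.05 the authors' deposited DESeq table called 2 members, PKIA higher and AKAP12 lower, where it called 1.56% of the genes it tested (0.934% higher and 0.63% lower). The authors' deposited Cuffdiff table called AKAP12 lower, where it called 2.34% of the genes it tested (1.23% higher and 1.11% lower). Since the members were picked with this contrast known, nothing is read from these counts.

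**Figure D1:**
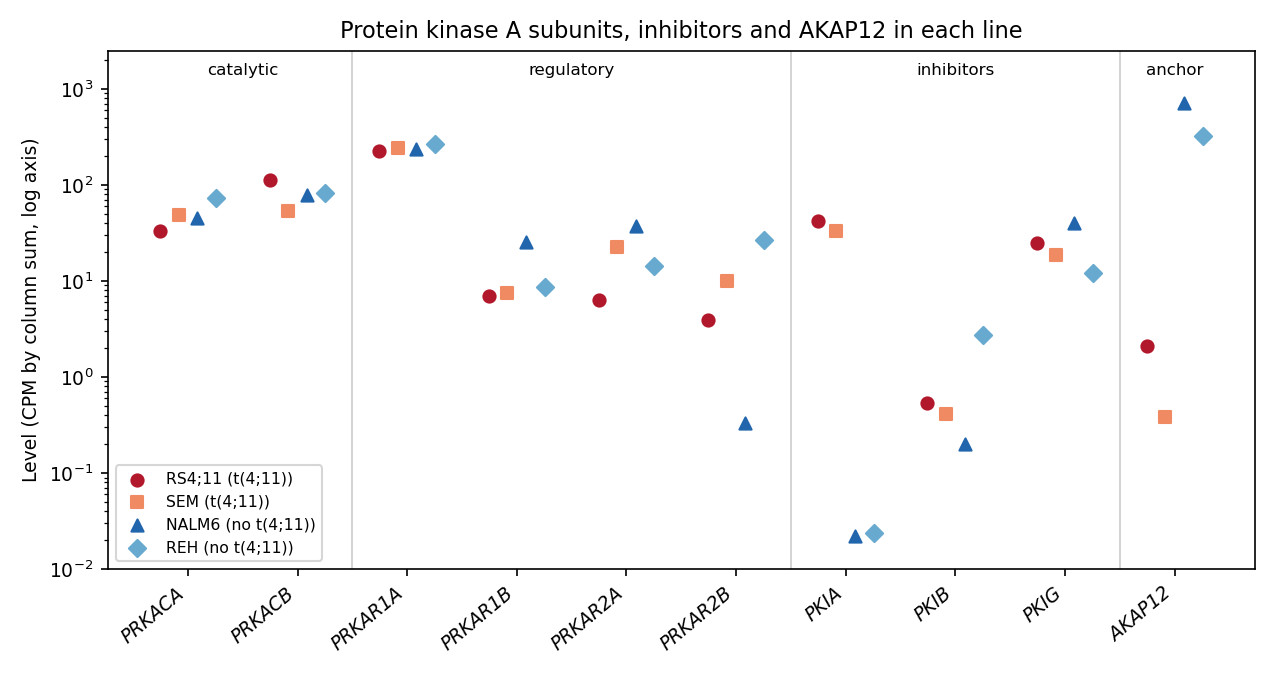
Level of each of the 10 genes in each line, in CPM on a log axis. Every point is 1 library, with the t(4;11) lines left of NALM6 and REH within a gene. PKIA stood at 42.0 and 33.2 CPM with t(4;11) and at 0.0223 and 0.0237 CPM without, AKAP12 ran the other way, and PRKAR1A lay between 228 and 268 CPM in all 4 lines.

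The catalytic subunits, which carry the kinase activity, were present in every line. PRKACA, which encodes the subunit Cα, was at 33.1 CPM in RS4;11 and 48.3 in SEM, and at 45.1 in NALM6 and 72.9 in REH. The groups overlapped, since SEM lay above NALM6. Its edgeR log2 fold change, t(4;11) over no t(4;11), was -0.44 (SE 0.37). PRKACB, which encodes Cβ, was at 114 CPM in RS4;11 and 53.2 in SEM, and at 78.9 in NALM6 and 81.7 in REH. Both t(4;11) lines lay outside the narrow range of the others, RS4;11 above and SEM below, and RS4;11 exceeded SEM 2.13-fold. Over the groups this gave a log2 fold change of 0.16 (SE 0.44), which turned to -0.50 without RS4;11. Scaled by length, the catalytic messages together came to 41.1 and 32.8 CPM per kb with the translocation and 37.7 and 49.8 CPM per kb without it. PRKACA made up 33.2% of that total in RS4;11 and 60.7% in SEM, and 49.3% in NALM6 and 60.3% in REH.

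PRKACG, a retrogene copy of the catalytic gene known from testis, had 8 and 1 counts in the translocated lines and 0 and 5 in the others. Reads it shares with the other catalytic genes cannot be separated at this level. PRKX, an X-linked kinase that type I regulatory subunits can also inhibit, was at 147 and 109 CPM with the translocation and at 119 and 161 CPM without it, and its groups overlapped.

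PRKAR1A encodes RIα, the regulatory subunit that buffers free catalytic subunits and whose loss causes Carney complex. It was at 228 CPM in RS4;11 and 244 in SEM, and at 237 in NALM6 and 268 in REH. All 4 values lay within a 1.18-fold range and the groups overlapped. Its coefficient of variation over the 4 lines was 7.08%, and 96.7% of the genes tested had a larger one. The log2 fold change was 0.0019 (SE 0.16) and stayed between -0.10 and 0.089 under the 9 alternatives run. By the authors' Cuffdiff FPKM, a length-scaled level per group, PRKAR1A was the highest of the 10 members in both groups, at 68.7 with t(4;11) and 68.9 without. The gene lies on chromosome 17 (66508110 to 66528910, hg19).

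PRKAR1A was also the only member whose promoter windows, as far as they were searched, held a full cAMP response element, TGACGTCA, which reads the same on both strands. The element is the site bound by CREB, the transcription factor that protein kinase A phosphorylates. RefSeq windows of 300 bases, 250 before and 50 after an annotated start (GRCh38.p14), were used for 9 members and 28 starts, and PKIA was left out. The element was present in 2 of these windows, both of PRKAR1A and both covering the same site, and in 1.85% of 35116 windows over all genes. The shorter core TGACG, counted on either strand and including the full element, occurred in 11 of the 28 member windows and in 24.6% of all windows. The 3 windows of AKAP12, the 2 of PKIG and the single window of PRKAR2B held neither. The PRKAR1A site is shown because it belongs to the steadiest member. It lies at chr17:68512370-68512399 (GRCh38.p14, plus strand), over an annotated exon of the gene, with the element in capitals.
PRKAR1A site: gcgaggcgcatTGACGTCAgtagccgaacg

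The other regulatory subunits were lower per length and more variable. PRKAR1B encodes RIβ, known mainly from brain, and was at 6.96 CPM in RS4;11 and 7.55 in SEM, and at 25.4 in NALM6 and 8.74 in REH. Both t(4;11) lines were below both others, but REH was much closer to them than to NALM6. Its log2 fold change was -1.13 (SE 0.67), and -0.17 without NALM6. The gene shares its Cuffdiff locus with HEATR2, which was at 26.0 and 25.6 CPM with the translocation and at 61.3 and 50.4 CPM without it. Reads of overlapping genes are not separated in a library without strand, and the part of HEATR2 in the PRKAR1B counts was not tested.

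PRKAR2A encodes RIIα, the widely expressed anchored subunit. It was at 6.32 CPM in RS4;11 and 22.5 in SEM, and at 37.1 in NALM6 and 14.4 in REH. The groups overlapped, because SEM exceeded REH. RS4;11 was lowest of the 4 and NALM6 highest, a 5.86-fold range. The log2 fold change of -0.74 (SE 0.85) became 0.099 without NALM6 and -1.90 without SEM.

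PRKAR2B encodes RIIβ, the anchored subunit known from fat, brain and endocrine tissue, on chromosome 7 (106685178 to 106802256, hg19). It was at 3.95 CPM in RS4;11 and 10.1 in SEM, and at 0.334 in NALM6 and 26.9 in REH. The split ran within the lines lacking t(4;11): REH was highest, NALM6 lowest, and both t(4;11) lines lay between them. REH exceeded NALM6 80.5-fold (2267 against 15 counts, 95% counting interval 48.7 to 144). With 1 library per line this difference has no replicate check. The sum of 6 myeloid markers was also highest in REH, at 4.51 and 5.26 CPM with the translocation and 9.19 and 39.3 CPM without it. MPO gave 34.2 CPM of the sum in REH, and ITGAM was highest there too. LYZ ran the other way, at 3.22 and 4.02 CPM with the translocation and at 8.14 and 0.273 CPM without it. CD14 had 1 to 9 counts in each line, CSF3R at most 1 and S100A8 none, and the part of such cells in the PRKAR2B and PKIB values of REH was not tested. Between the groups the log2 fold change was -0.87 (SE 1.94), and 4.47 without REH. The 150 bases shown here end 56 bases before the RefSeq start and before any annotated exon, and are given because the gene was nearly silent in 1 line only. They lie at chr7:107044499-107044648 (GRCh38.p14, plus strand) and hold 23 CG dinucleotides, in capitals, where the 150 bases before a start held a median of 7 over all RefSeq windows. DNA methylation was not analysed here.
PRKAR2B: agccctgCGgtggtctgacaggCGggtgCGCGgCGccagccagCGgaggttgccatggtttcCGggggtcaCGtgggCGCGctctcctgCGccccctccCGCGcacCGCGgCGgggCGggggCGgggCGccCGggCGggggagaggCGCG

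Scaled by length, PRKAR1A made up 90.3% and 81.2% of the regulatory messages in the translocated lines and 71.1% and 81.1% in the others. The remainder differed in kind between lines. In NALM6 PRKAR2A gave 17.0% and PRKAR1B 11.8%. In REH PRKAR2B gave 8.17%, against 0.101% in NALM6. In SEM PRKAR2A gave 11.5%, and in RS4;11 no other subunit passed 4.28%. Summed over the 4 regulatory genes, the level was 71.1 and 84.6 CPM per kb with the translocation and 94.0 and 93.2 CPM per kb without it. Its ratio to the catalytic sum was 1.73 in RS4;11 and 2.58 in SEM, and 2.50 in NALM6 and 1.87 in REH, so the groups overlapped. The length used is the one implied by the deposited counts and FPKM. With the longest annotated transcript in its place the PRKAR2A share was lower, at 1.70% in RS4;11 and 5.32% in SEM, and at 8.12% in NALM6 and 2.98% in REH. The order then turned in NALM6 and in REH, with PRKAR1B above PRKAR2A at 14.1% and 4.58%. In RS4;11 PRKAR2B, at 1.84%, then passed PRKAR2A.

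**Figure D2:**
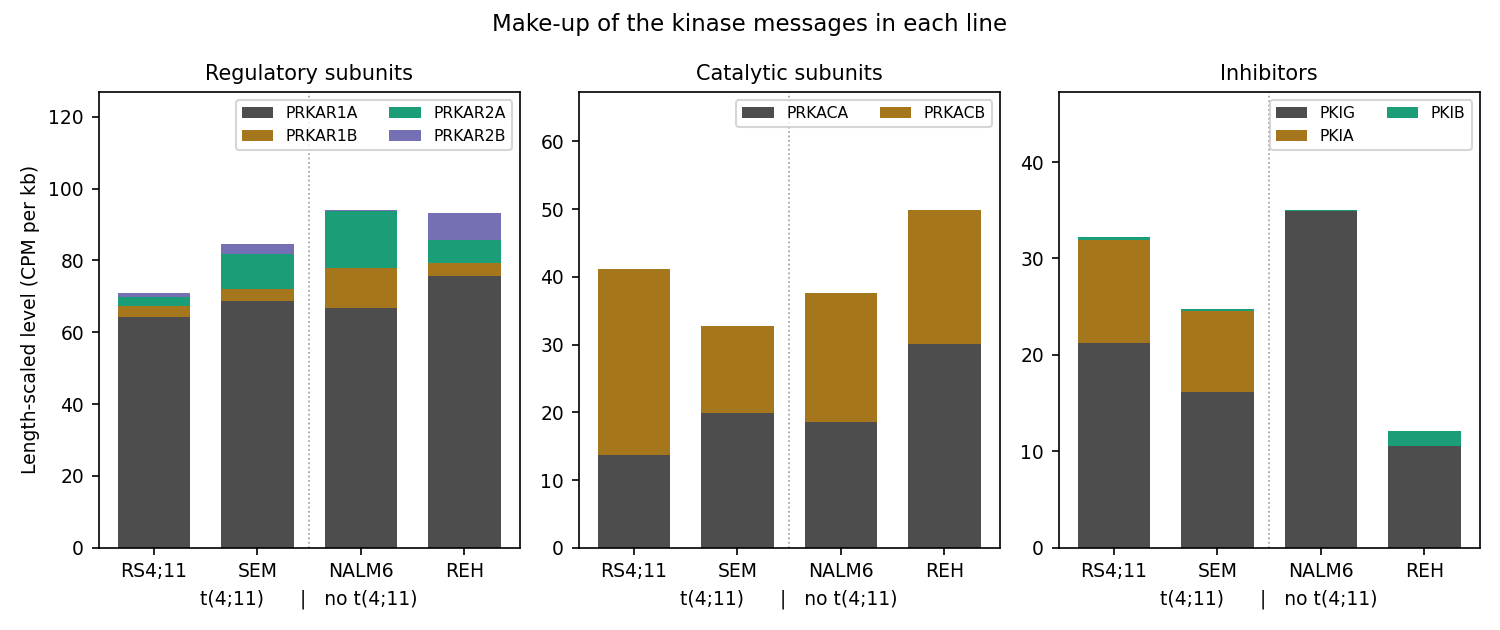
Stacked length-scaled levels (CPM per kb, linear axes from 0) of the regulatory, catalytic and inhibitor genes, 1 bar per line and t(4;11) lines at the left of each panel. PRKAR1A fills most of every regulatory bar (71.1% to 90.3%), and PKIA is visible in the inhibitor bars of RS4;11 (33.0%) and SEM (33.9%) but not in those of NALM6 and REH.

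PKIA encodes the α form of the inhibitor, known from muscle and brain. It had 2181 counts in RS4;11 and 1117 in SEM, and 1 count in NALM6 and 2 in REH. In CPM this was 42.0 and 33.2 with t(4;11) and 0.0223 and 0.0237 without, both below the floor of 3 counts. The t(4;11) lines lay within 1.27-fold of each other and the groups were far apart. The ratio of summed CPM was 1660-fold (95% counting interval 567 to 8052), resting on 3 counts in the lines without t(4;11). The edgeR log2 fold change of 10.63 (SE 0.49) depends on the prior count and is no bound. The authors' Cuffdiff FPKM was 9.53 with t(4;11) and 0.00547 without, and that table did not call PKIA. Of 6 markers of T and NK cells, summed at 26.1 and 15.8 CPM with the translocation and 0.959 and 1.496 CPM without it, NKG7 gave the most and ordered the groups as PKIA did. The 3 CD3 genes were at 0 counts, and the part of such cells in the PKIA result was not tested.

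PKIG encodes the γ form, the broadly expressed inhibitor. It was at 24.7 CPM in RS4;11 and 18.8 in SEM, and at 40.5 in NALM6 and 12.2 in REH. Both t(4;11) lines lay between NALM6 and REH, which differed 3.31-fold. The log2 fold change of -0.17 (SE 0.68) was 0.93 without NALM6 and 0.033 without SEM. PKIB, the β form, was low everywhere, at 0.540 CPM in RS4;11 and 0.416 in SEM, and at 0.201 in NALM6 and 2.72 in REH. REH stood above the other 3 lines, 13.6-fold over NALM6 (229 against 9 counts, 95% counting interval 7.01 to 30.01). A log2 fold change of -1.51 (SE 1.40) turned to 1.34 without REH.

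Per length, PKIG was the most abundant inhibitor message in every line. PKIA made up 33.0% and 33.9% of the inhibitor total in the translocated lines and 0.0161% and 0.0497% in the others. The summed inhibitor level overlapped between the groups, at 32.2 and 24.8 CPM per kb with the translocation and 35.0 and 12.1 CPM per kb without it. Relative to the catalytic sum it was 0.784 in RS4;11 and 0.757 in SEM, and 0.929 in NALM6 and 0.243 in REH. NALM6, where PKIG gave 99.7% of the inhibitor total, thus had a higher ratio than either line with PKIA, and REH stood lowest.

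AKAP12, also called gravin, is a large scaffold that tethers type II protein kinase A, protein kinase C and the β2-adrenergic receptor at the plasma membrane, and is often silenced in tumours. It had 110 counts in RS4;11 and 13 in SEM, and 32264 in NALM6 and 27207 in REH. In CPM this was 2.12 and 0.387 with t(4;11) and 719 and 323 without. Both t(4;11) lines were far below both others, and the lines of a group still differed, 5.48-fold with t(4;11) and 2.23-fold without. The mean over lines was 1.25 ± 1.23 CPM with t(4;11) and 521 ± 280.2 CPM without (SD, n = 2 each), which is 416-fold lower with t(4;11). Its log2 fold change was -8.56 (SE 1.25), with -10.29 without RS4;11, -7.81 without SEM, -7.87 without NALM6 and -9.03 without REH.

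In the authors' FPKM per group, AKAP12 was the lowest of the 10 members with t(4;11), at 0.157, and was second only to PRKAR1A without it, at 59.6. By line it was above PRKAR1A in NALM6 (82.3 against 66.8 CPM per kb) and below it in REH (37.0 against 75.6 CPM per kb). AKAP12 is known from fibroblasts and endothelium. Summed over 6 markers of those cells the level was 44.7 and 119 CPM with the translocation and 7.40 and 46.0 CPM without it, most of it from PDGFRB. NALM6, the line with the most AKAP12, was lowest by these markers. DCN and COL1A2 had 0 counts in every line, and CDH5 at most 1, and the part of such cells in the AKAP12 values was not tested.

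AKAP12 lies on chromosome 6 (151561134 to 151679694, hg19) and has 3 RefSeq start windows. The bases before each are shown because the counts, summed over the gene, do not tell which start was used in NALM6 and REH. Each run is 150 bases upstream of annotated exons (GRCh38.p14, plus strand) with CG dinucleotides in capitals. Start 1 lies at chr6:151239817-151239966 with 7 of them, start 2 at chr6:151325381-151325530 with 8, and start 3 at chr6:151341536-151341685 with 16. Starts 1 and 2 were thus close to the median of 7 over all RefSeq windows, and start 3 held more.
AKAP12 start 1: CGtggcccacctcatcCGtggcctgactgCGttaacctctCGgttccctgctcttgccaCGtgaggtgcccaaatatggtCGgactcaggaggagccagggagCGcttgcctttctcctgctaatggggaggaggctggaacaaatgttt
AKAP12 start 2: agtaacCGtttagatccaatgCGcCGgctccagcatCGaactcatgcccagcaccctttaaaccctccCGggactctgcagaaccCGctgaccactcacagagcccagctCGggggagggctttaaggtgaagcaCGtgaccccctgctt
AKAP12 start 3: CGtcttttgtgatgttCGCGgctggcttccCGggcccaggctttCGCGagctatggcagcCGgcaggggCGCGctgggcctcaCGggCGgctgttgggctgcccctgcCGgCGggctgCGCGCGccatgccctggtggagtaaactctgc

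On either side of AKAP12 the nearest gene that passed the filter overlapped between the groups. MTHFD1L, a mitochondrial folate enzyme 138 kb before it, was at 94.6 and 103 CPM with the translocation and at 144 and 68.2 CPM without it. ZBTB2, a zinc finger protein 5.56 kb after it, was at 34.3 and 46.8 CPM with and at 44.1 and 28.6 CPM without. The near absence of AKAP12 RNA with t(4;11) was not shared by either of these neighbours.

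PKIA, on chromosome 8 (79428336 to 79517502, hg19), did share its pattern with the next such gene after it. ZC2HC1A, a zinc finger gene 60.8 kb away (79578282 to 79631997), had 332 and 450 counts with the translocation and 0 and 2 without it. The ratio of summed CPM was 590.3-fold (95% counting interval 163 to 4883). The authors' deposited DESeq table called ZC2HC1A higher, and their Cuffdiff table did not call it. The next one, IL7, encodes the cytokine interleukin-7 (79645007 to 79717758) and was included after its values were seen. It had 18 counts in RS4;11 and 33 in SEM, and 0 counts in NALM6 and in REH. This makes it at least 25.7-fold higher with t(4;11), taking 3 counts over the group as the floor. The deposited Cuffdiff table called IL7 higher, and the DESeq table did not call it. Before PKIA no gene that passed the filter lay within 500 kb. PEX2, a peroxisome assembly factor 1515 kb before PKIA, was at 74.5 and 42.9 CPM with the translocation and at 51.4 and 13.2 CPM without it, and overlapped between the groups. PKIA, ZC2HC1A and IL7 thus had counts in both t(4;11) lines and next to none in NALM6 and REH. Each passed the filter through its t(4;11) values alone, so nothing is read from the shared pattern.

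**Figure D3:**
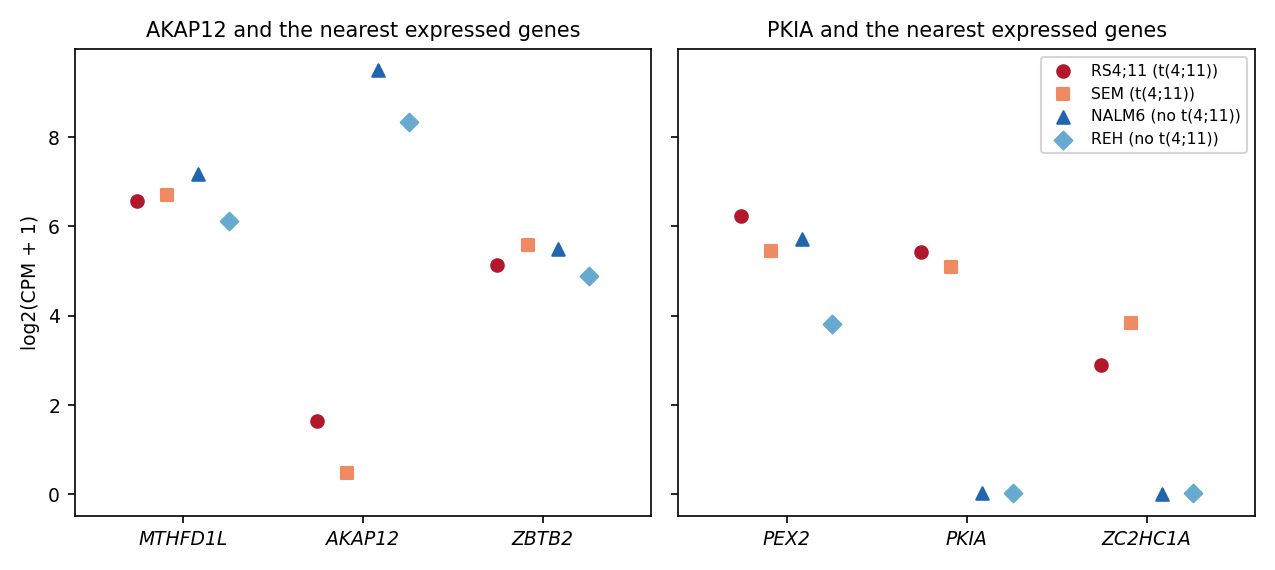
Levels as log2(CPM + 1) of AKAP12 and of PKIA with the nearest gene on each side that passed the low-count filter, in order along the chromosome. Each point is 1 library, t(4;11) lines left. The neighbours of AKAP12 overlapped between the groups, while ZC2HC1A followed PKIA and was at 0 and 2 counts in NALM6 and REH.

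Genes with the pattern nearest to a member were found by the Euclidean distance of mean-centred log2(CPM + 1) over the 4 lines. For AKAP12, whose own pattern had a length of 7.95 on this scale, they were DTX1 (distance 1.19), a regulator of NOTCH signalling, RASD1 (1.33), a small G protein, and ITPR3 (1.36), a calcium release channel of the endoplasmic reticulum. DTX1 was at 0.174 and 0.327 CPM with the translocation and at 236 and 162 CPM without it. For PKIA, with a length of 5.23, they were CXorf57 (distance 0.159), MDFIC (0.359), an inhibitor of MyoD family proteins, and C8orf83 (0.394). CXorf57 was at 36.5 and 30.2 CPM with the translocation, and had 0 counts in NALM6 and 2 in REH. With 4 lines many genes can share a pattern, so this is a description only.

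Of 100 other cAMP pathway genes in 9 lists, 74 passed the low-count filter, and none of these 74 had a log2 fold change as far from 0 as PKIA or AKAP12. Since PKIA and AKAP12 were picked with this contrast known, nothing is read from that. PTGDR, PTGER2 and PCK1, each with most of its counts in 1 line, did not pass the filter and were not compared. Of the 74, both t(4;11) lines lay above both others for 15 (20.3%, against 19% of all genes) and below for 19 (25.7%, against 28.3%), and with TMM scaling for 18 each. The median log2 fold change was 0.028, and -0.018 over all genes. With edgeR's quasi-likelihood test 0 of the 74 and 0 of all 13844 genes passed an adjusted p of 0.05. At an unadjusted p under 0.05 in that test there were 5 higher and 6 lower of the 74, and 1668 of all 13844 genes. DESeq2 on the same counts called 3 of the 74 higher (PTGER4, BVES and EGR1) and 5 lower (AKAP5 and 4 phosphodiesterases), and 1349 of all 13844 genes. The exact test of edgeR called 441 of all genes. The share of all genes by direction was not counted for these calls, so nothing is read from them. The authors' deposited DESeq table called none of the pathway genes, and their deposited Cuffdiff table called ADCY6 and PTGER4 higher and PTGDR and PCK1 lower. Of all genes it tested, the Cuffdiff table called 1.23% higher and 1.11% lower.

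**Figure D4:**
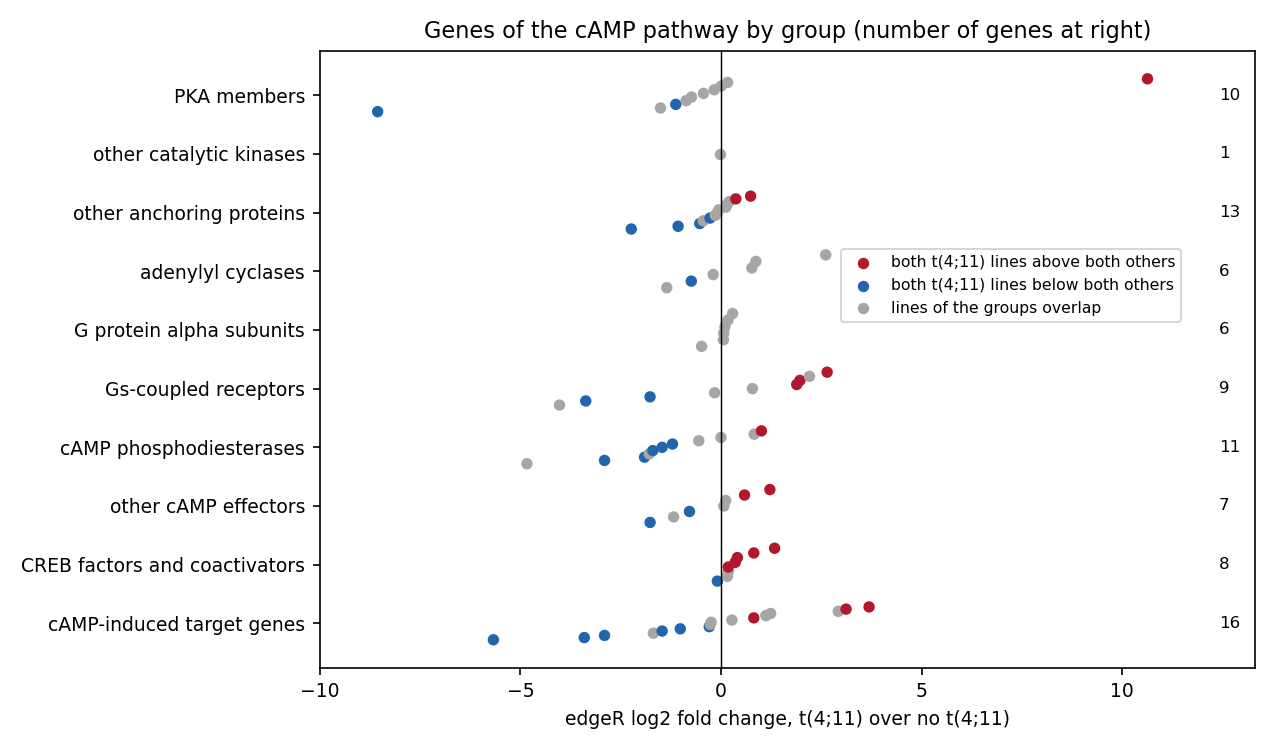
The edgeR log2 fold change, t(4;11) over no t(4;11), of each gene that passed the low-count filter, by list. Red points had both t(4;11) lines above both others, blue below, and grey overlapped. PKIA (10.63) and AKAP12 (-8.56), picked with this contrast known, lie beyond every other gene plotted, whose values ran between -5.67 and 3.69.

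Upstream of cAMP, GNAS, which encodes the stimulatory G protein, was at 1075 and 698 CPM with the translocation and at 921 and 773 CPM without it. GNAI2, which encodes an inhibitory one, was at 248 and 243 CPM with and at 321 and 173 CPM without. Both overlapped, as did all 6 G protein genes by column-sum CPM. ADCY6, an adenylyl cyclase inhibited by calcium, was at 41.5 and 223 CPM with the translocation and at 2.65 and 43.3 CPM without it. RS4;11 was just below REH, so the groups overlapped, but not with TMM scaling. Its log2 fold change of 2.61 (SE 1.65) was 0.98 without SEM, 1.70 without NALM6 and 5.73 without REH. ADCY7, another cyclase, was at 64.8 and 86.7 CPM with the translocation and at 80.1 and 9.23 CPM without it.

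Among receptors, PTGER4, the EP4 receptor of prostaglandin E2, was at 146 and 56.7 CPM with the translocation and at 17.1 and 17.9 CPM without it, with no overlap. Its log2 fold change was 2.64 (SE 0.56), and 1.79 without RS4;11. PTGDR, a prostaglandin D2 receptor, did not pass the filter. It had 0 counts in both translocated lines, 2248 in NALM6 and 10 in REH, so its group mean rests on NALM6. GPR65, a proton-sensing receptor, was at 32.2 and 18.4 CPM with the translocation and at 2.16 and 11.7 CPM without it. Of 9 receptors that passed the filter 3 were above both other lines (33.3%, against 19% of all genes) and 2 below (22.2%, against 28.3%).

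The phosphodiesterases, which break down cAMP, had the lowest median log2 fold change of the 9 lists, -1.47 over 11 genes. Both t(4;11) lines lay below both others for 5 of them (45.5%, against 28.3% of all genes) and above for 1, by either scaling. PDE7A, an enzyme of lymphocytes, was the one above, at 249 and 126 CPM with the translocation and 94.1 and 107 CPM without it. PDE3B overlapped, at 16.9 and 138 CPM with and 47.9 and 45.2 CPM without. The genes given next were picked after their values were seen. PDE4A was at 14.8 and 11.5 CPM with the translocation and at 48.3 and 57.8 CPM without it, a log2 fold change of -1.91 (SE 0.29). PDE4D was at 8.08 and 6.22 CPM with the translocation and at 19.2 and 23.4 CPM without it, a log2 fold change of -1.47 (SE 0.40). PDE1B (-1.21, SE 0.31) and PDE8B (-1.70, SE 0.58) were also lower in both lines, and PDE4B had 568 counts in RS4;11 and 0 in SEM, and 3356 in NALM6 and 1236 in REH. None of the 11 passed edgeR's adjusted test or was called in either deposited table, but 4 of the 5 pathway genes that DESeq2 called lower were among them. DESeq2 called 1349 genes in all, and these 4 were picked after their values were seen, so nothing is read from its calls.

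Of the other anchoring proteins 13 passed the filter, 2 above both lines without t(4;11) (15.4%, against 19% of all genes) and 4 below (30.8%, against 28.3%). EZR, which encodes the cytoskeletal linker ezrin, was at 429 and 486 CPM with the translocation and at 239 and 349.5 CPM without it. AKAP9, a centrosomal and Golgi scaffold, was at 252 and 162 CPM with and at 605 and 332 CPM without. AKAP5, which like AKAP12 binds the plasma membrane, was picked out with its values known. It had 228 counts in RS4;11 and 87 in SEM, and 1068 in NALM6 and 990.0 in REH, a log2 fold change of -2.24 (SE 0.64).

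Among other effectors of cAMP, the membrane protein gene BVES was at 18.6 and 25.3 CPM with the translocation and at 8.78 and 11.4 CPM without it. HCN3, a cyclic nucleotide-gated channel, was at 5.57 and 7.05 CPM with and at 10.4 and 13.0 CPM without. The 8 CREB factors and coactivators had a median log2 fold change of 0.27, with 5 above both other lines (62.5%, against 19% of all genes) and 1 below (12.5%, against 28.3%). With TMM scaling 5 were again above and 1 below, where 24.3% and 23.4% of all genes were. None of the 8 passed edgeR's adjusted test or was called in either deposited table. Groups can part by little: CREB1, picked with its values known, was at 141 and 139 CPM with the translocation and at 135 and 131 CPM without it. Nothing is read from these shares. EP300, a coactivator, was at 258 and 278 CPM with the translocation and at 239.6 and 195 CPM without it. CREBBP, its paralog, was at 252 and 195 CPM with and at 214 and 211 CPM without, and overlapped. CRTC3, a cAMP-regulated coactivator picked with its values known, was at 44.6 and 93.4 CPM with and at 25.9 and 32.6 CPM without, a log2 fold change of 1.33 (SE 0.44) that was 0.73 without SEM.

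Genes known to be induced through CREB did not move one way. Of 16 that passed the filter, PDE4B and PDE4D among them, 3 were above both lines without t(4;11) (18.8%, against 19% of all genes) and 6 below (37.5%, against 28.3%). With TMM scaling 5 were below, where 23.4% of all genes were. The median log2 fold change was -0.26. DUSP1, a MAP kinase phosphatase, was at 59.6 and 25.5 CPM with the translocation and at 29.2 and 265 CPM without it. RGS2, a regulator of G protein signalling, was at 6.17 and 114 CPM with the translocation and at 5.48 and 11.3 CPM without it. PCK1, a gluconeogenic enzyme, had 0 counts in RS4;11, SEM and NALM6 and 1939 in REH, so that its Cuffdiff call rests on 1 line. The orphan nuclear receptor gene NR4A3 and the immediate-early gene EGR1 were picked with their values known. NR4A3 had 1 count in RS4;11 and 0 in SEM, and 18 in NALM6 and 88 in REH. EGR1 ran the other way, at 3.74 and 13.7 CPM with the translocation and 0.959 and 1.19 CPM without it.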

How the data were processed

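Per the submitters' processing notes, the tools were HTSeq, DESeq, Cuffdiff, TopHat2 2.0.4 and CASAVA 1.8.2, on build hg19. No settings or annotation were found in the sources. Per the file headers, 1 deposited table holds raw HTSeq counts per gene and line, DESeq normalized counts (a signal: count over 1 size factor per line), their ratio of control to t(4;11) means (a fold change) and DESeq p-values. The other deposited table holds the authors' Cuffdiff FPKM per group, log2 fold changes of control over t(4;11), a test score, p-values and q-values. Per the labels' protocols, mRNA libraries came from a TruSeq RNA kit, which does not mark strand.

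Counts were fitted with edgeR 4.0.16 (limma 3.58.1, R 4.3.3): TMM, filterByExpr and the quasi-likelihood test, two-sided, Benjamini-Hochberg adjusted over all genes, with 2 residual degrees of freedom. The procedure was tested on simulated counts that varied less between lines than these do, so that test does not show its error rate here. A standard error is the log2 fold change over the square root of F, and positive values are higher with t(4;11). With 1 library per line, p-values rest on differences between separate leukemias. Counting intervals are exact (95%, conditional on the summed counts) and cover counting error only. CPM per kb divides CPM by the length implied by mean CPM over FPKM, which was chosen after the data were seen. Coordinates are Cuffdiff loci in hg19, while sequences and their positions are RefSeq's in GRCh38.p14. DESeq2 1.42.0, other scalings and filters and leaving out each line were alternatives. Members and lists were chosen with earlier results of these data known. Of each pathway list, genes called by edgeR or a deposited table (up to 6) and the 2 with the highest mean CPM were named; other genes are marked as picked later.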

Additional observations from a re-analysis of the deposited data

How the results depend on the processing

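With 2 lines per group, the number of genes called depended on the test: edgeR's quasi-likelihood test called 0 of all genes, also with RLE size factors, with column sums alone and without any 1 line, 5 without a filter on low counts and 4 with at least 1 CPM in 2 lines. DESeq2 called 1349 and edgeR's exact test 441. In the pathway lists the quasi-likelihood test called 0 under every alternative run, and DESeq2 called 3 of 74 higher and 5 lower, from which nothing is read. The cause of these differences was not tested. Pathway genes with groups that did not overlap, 15 higher and 19 lower, numbered 22 to 28 higher and 26 to 32 lower without 1 line, which fewer lines alone can give.

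Column sums in place of TMM moved the median log2 fold change of all genes by -0.10. TMM scaling moved no member's level by more than 4.87% and the authors' size factors by no more than 4.25%, and 3 members did not overlap under either. PKIA and AKAP12 were picked with this contrast known and had groups far apart, so no alternative was likely to turn their direction. Under the 9 alternatives their log2 fold changes ran between 10.45 and 10.83 and between -10.29 and -7.81. The sign turned in 10 of 195 alternative fold changes, all of members near 0 or set by 1 line. Without 1 line PKIB ran between -2.40 and 1.34, PKIG between -0.80 and 0.93, PRKACB between -0.50 and 0.63, PRKAR2A between -1.90 and 0.099, PRKAR2B between -1.85 and 4.47, and PRKAR1A between -0.084 and 0.089. With column sums PRKAR1A was -0.10, and -0.012 with at least 1 CPM in 2 lines. No paired analysis was possible because the replicate numbers follow listing order and pair no lines. Depth limits PKIA, ZC2HC1A and IL7 in NALM6 and REH, where they had 0 to 2 counts.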
